A study of Mus musculus with 4 samples.

Results

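The genes described here sense or turn over ATP, adenosine and NAD outside the cell: the ATP receptors *P2rx7* and *P2rx4*, the ectonucleotidases *Entpd1* (CD39) and *Nt5e* (CD73), the adenosine receptors *Adora2a* and *Adora2b*, the adenosine deaminase *Ada*, the surface peptidase *Dpp4* (CD26), the NAD hydrolase *Cd38* and the ADP-ribosyltransferase *Art2b*. They were chosen by name, and all 10 are among the 25239 genes of the table. Expression was measured by bulk RNA sequencing of NKT cells from the small intestinal lamina propria (SI-LP), which are T cells whose receptor binds lipids on CD1d. All 4 libraries belong to one condition, WT mice of the C57BL/6Jax strain, males and females of 7 to 10 weeks. There were 2 experiments, and by their titles replicates 3 and 4 belong to the first and replicates 1 and 2 to the second. Cells were sorted as live TCRβ+ cells that bound a CD1d tetramer loaded with PBS-57 and lacked B220, CD11b, CD11c and CD8. Before harvest, the mice were injected with a nanobody against ARTC2, the product of *Art2b*, and the digestion medium contained NADase. The labels do not say whether each library came from 1 mouse, so p-values measure the spread between these libraries, which may in part be technical. With one condition, the data give the level of each gene, its spread between libraries and its difference between the experiments.

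ATP released by stressed or dying cells opens the P2X7 channel, and CD39 and CD73 degrade ATP stepwise to adenosine, which acts on A2A receptors that raise cAMP and restrain T cells. In mouse T cells, ARTC2.2 transfers ADP-ribose from extracellular NAD to P2X7, which then opens without ATP. Tissue-resident T cells that carry ARTC2.2 and P2X7 are lost in this way when NAD is freed during cell isolation, for which reason an ARTC2-blocking nanobody is often given before their preparation.

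*P2rx7* and *Art2b* are the receptor and the enzyme that modifies it, and the sequences before their start sites are shown. Each had the other as the nearest profile of the group over the libraries, as described further on. The same held for *Ada* with *Dpp4* and for *Nt5e* with *Adora2a*, so this likeness is not particular to *P2rx7* and *Art2b*. *P2rx7* has 2 RefSeq start sites on GRCm38, the second of which lies in its first intron. The counts are summed over all 17 exon intervals of the gene, so they do not tell the transcripts from the 2 starts apart, and mouse T cells are known to use an alternative first exon. Each window holds the 250 bases before a start site, 5′ to 3′ on the strand of the gene, with sequences from RefSeq, and capitals mark matches to 3 motifs of factors active in T cells, searched on both strands: T-box (AGGTGT), Runx (TGTGGT) and AP-1 (TGACTCA).
*P2rx7*, first start, chr5:122643677-122643926, plus strand: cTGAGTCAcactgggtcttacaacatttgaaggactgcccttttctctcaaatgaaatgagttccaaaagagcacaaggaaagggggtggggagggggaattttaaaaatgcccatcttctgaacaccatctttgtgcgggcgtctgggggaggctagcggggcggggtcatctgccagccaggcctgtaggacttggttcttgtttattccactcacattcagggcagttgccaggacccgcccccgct
*P2rx7*, second start, chr5:122650133-122650382, plus strand: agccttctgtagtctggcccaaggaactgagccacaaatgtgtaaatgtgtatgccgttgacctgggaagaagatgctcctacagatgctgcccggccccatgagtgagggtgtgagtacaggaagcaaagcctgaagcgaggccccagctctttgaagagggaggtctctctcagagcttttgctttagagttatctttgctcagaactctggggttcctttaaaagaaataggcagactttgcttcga
*Art2b*, chr7:101581162-101581411, minus strand: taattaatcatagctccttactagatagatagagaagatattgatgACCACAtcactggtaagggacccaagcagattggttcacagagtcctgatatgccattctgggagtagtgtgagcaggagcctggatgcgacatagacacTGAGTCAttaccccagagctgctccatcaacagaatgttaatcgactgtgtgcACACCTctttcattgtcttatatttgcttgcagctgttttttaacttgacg
The first *P2rx7* window held 1 AP-1 match and the second held 0 matches to the 3 motifs. The *Art2b* window held 1 match to each of them. Windows were matched by symbol for 9 genes (not *Adora2a*), and of those not printed, the window of *Adora2b* held 1 T-box match and the others 0 matches. Of 32851 windows of this length before RefSeq starts, 11.8% held the T-box letters, 14% the Runx letters and 4.46% the AP-1 letters, and a match is a description of the sequence, not a binding site.

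The libraries differed in depth and purity. Total counts ran from 3882803 in replicate 4 to 8732858 in replicate 2, and the ribosomal precursor gene *Rn45s* took between 7.36% and 28.1% of them. Levels are therefore given as CPM, counts divided by the TMM-adjusted library size, on which scale 3 counts correspond to between 0.287 and 0.753 CPM. The 7 T cell markers made up 0.254% of the total in replicate 1 and 0.284% in replicate 3, but 0.118% in replicate 2 and 0.133% in replicate 4. The 21 epithelial markers accounted for 0.110% and 0.0294% in the same pair of libraries, but for 1.17% in replicate 2 and 3.07% in replicate 4. Most of the share in replicate 4 came from *Lyz1* alone, with 84299 of the 3882803 counts there, against 3534 counts in replicate 2. Plasma cell markers made up 0.671% (replicate 1) and 0.854% (replicate 2) in the second experiment, against 0.0238% (replicate 3) and 0.0497% (replicate 4) in the first. B cell markers reached at most 0.0077%, myeloid markers 0.0181%, stromal and endothelial markers 0.0194%, mast cell markers 0.0075%, and *Cd8a* with *Cd8b1* 0.000149%. *Kdr*, *Mcpt1*, *Mcpt2*, *Fcer1a* and *Cma1* had 0 counts in all libraries. All 6 genes of a list of NKT1 markers (*Tbx21*, *Zbtb16*, *Il2rb*, *Nkg7*, *Xcl1* and *Klrb1c*) were above 3 counts in every library. Together they took between 0.0882% and 0.401% of the counts. The authors name *Zbtb16* among markers of the NKT2 and NKT17 subsets, so the list does not define NKT1 cells. Replicates 2 and 4 stand apart by the shares of T cell and epithelial markers, and the levels below are also given without them. The values without them still include replicate 1, in which plasma cell markers (0.671%) took a larger share than T cell markers (0.254%).

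Of the 10 genes, 9 had more than 3 counts in all 4 libraries, as did 35.9% of all genes of the table. The genes were chosen with earlier results of these data known, so the difference between these shares is not a result about the group. *Adora2b* was not detectable at this depth. To compare genes with each other, counts were divided by the deposited gene length (TPM, the same scale after correction for length). By mean TPM, the order was *Art2b* (138), *Cd38* (114), *P2rx7* (110), *Entpd1* (94.2), *Adora2a* (48.2), *Ada* (35.7), *P2rx4* (32.9), *Dpp4* (23.3), *Nt5e* (14) and *Adora2b* (0.04). Among the 11689 genes that reached 10 counts in 2 or more libraries, *Cd38* lay at a TPM percentile of 88.0 on average over the libraries, *P2rx7* of 84.8, *Art2b* of 84.3, *Entpd1* of 82.7 and *Nt5e* of 38. The median of this percentile over the 10 genes was 62.3.
Few neighbours in this order kept it in every library. *Entpd1* exceeded *Adora2a* in all 4 libraries, by 1.46 ± 1.16 on the log2 TPM scale (SD, n = 4), which in an exact permutation test over sign flips (two-sided) gave the smallest p that 4 libraries allow, one that cannot pass 0.05. In replicate 3 both were close, at 131.8 and 131.1 TPM, and with the length of the longest coding transcript *Adora2a* (122 TPM) exceeded *Entpd1* (100.2 TPM) in this library. *Nt5e* exceeded *Adora2b* in all 4 as well. The other 7 pairs of neighbours kept their order in 2 or 3 libraries, with exact p-values from 0.375 to 1.0, and in each of them the mean log2 ratio was smaller than its SD over the libraries. Over the 8 pairs tested, the adjusted p of the exact test was 1.0 for each. Of all 45 pairs of genes, 28 had the same order in every library.

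**Figure D1:**
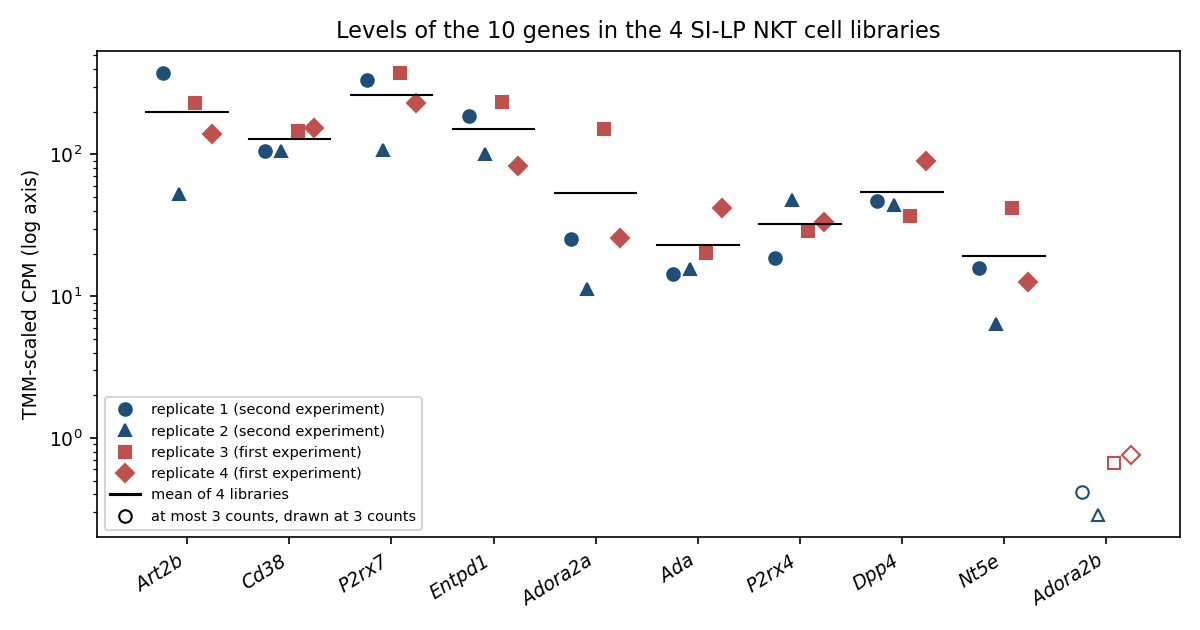
The plot of levels shows TMM-scaled CPM on a log axis for each gene, ordered by mean TPM, with 1 point per library (circles and triangles, second experiment; squares and diamonds, first experiment) and the mean as a line; open symbols are drawn at the level of 3 counts. The 4 points of *Cd38* lie within a factor of 1.45 and those of *Adora2a* within a factor of 13.5, and *Adora2b* was at or below 3 counts in every library.

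*P2rx7*, the ATP-gated channel of high ATP threshold, had the highest mean CPM of the 10 genes. It reached 336 CPM in replicate 1, 108 in replicate 2, 373 in replicate 3 and 230 in replicate 4, with a mean of 262 ± 119 CPM (SD, n = 4). Replicate 2 was the lowest library, and the range of the second experiment enclosed replicate 4 of the first. The gene lies on the plus strand at chr5:122643927-122692336, and *P2rx4* follows on the same strand at chr5:122707544-122729738, with a gap of 15207 bases and no other gene of the table in between. *P2rx4*, a channel opened by lower ATP concentrations, was measured at 18.7, 47.8, 28.8 and 33.1 CPM in replicates 1 to 4 (32.1 ± 12.1 CPM, SD, n = 4). Here replicate 2 was the highest library, whereas it was the lowest for *P2rx7*. The ratio of *P2rx7* to *P2rx4* by TPM was accordingly 7.53 in replicate 1, 0.946 in replicate 2, 5.42 in replicate 3 and 2.91 in replicate 4. *P2rx7* thus exceeded its neighbor in 3 of 4 libraries, and with the length of the longest coding transcript also in replicate 2 (66.8 against 52.7 TPM). Without replicates 2 and 4, the mean was 354 CPM for *P2rx7* and 23.8 CPM for *P2rx4*. In bulk RNA, fewer cells of a type and less RNA per cell cannot be told apart, which holds for each value here. Of the 101-base words (the read length) in the GENCODE transcripts of *P2rx7*, 2.3% also occur in other genes. Its exons overlap 118 bases of the microRNA gene *Mir8115*, which had 0 counts in all libraries.

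**Figure D2:**
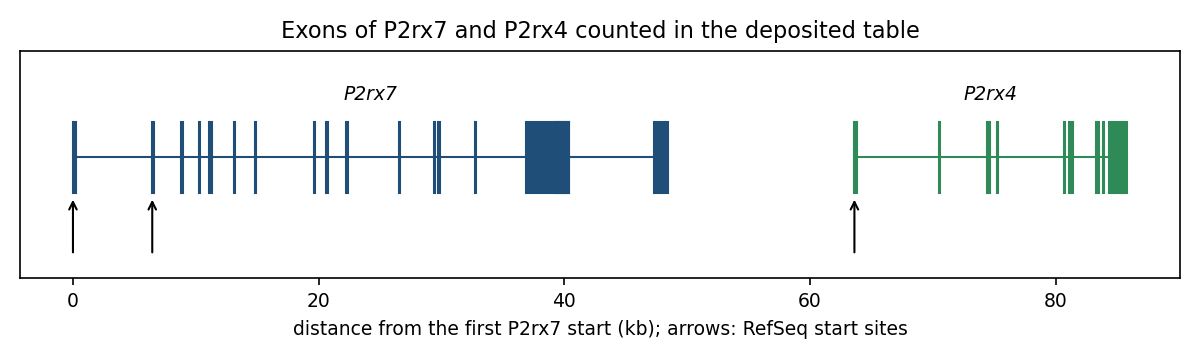
The map shows the exons of *P2rx7* (blue) and *P2rx4* (green) that were counted, to scale, by distance in kb from the first *P2rx7* start site on GRCm38, with arrows at RefSeq start sites. *P2rx7* has 17 distinct exon intervals and 2 starts, and *P2rx4* has 12 intervals and begins 15207 bases after the end of *P2rx7*.

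The other P2 receptors were mostly near the limit of detection. Of 7 P2X genes, *P2rx1*, *P2rx2* and *P2rx5* had 0 counts in every library, and the third by TPM, *P2rx3*, had 1, 29, 0 and 15 counts in replicates 1 to 4. Among 9 P2Y genes, *P2ry10*, a lysophosphatidylserine receptor of lymphocytes that is grouped with the nucleotide receptors by sequence, stood out at 436, 147, 576 and 126 CPM in replicates 1 to 4. The ATP and UTP receptor *P2ry2* (0, 76, 0 and 128 counts) and the ADP receptor *P2ry1* (4, 99, 0 and 47 counts) had nearly all of their counts in replicates 2 and 4. These were the libraries with the larger share of epithelial markers, and the part of epithelial RNA in these counts was not tested. By mean TPM, *P2rx7* and *P2ry10* were the only genes of both receptor lists above 100, with *P2ry10* at 303 TPM.

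*Entpd1*, which converts ATP and ADP to AMP, was measured at 187 and 100 CPM in replicates 1 and 2 and at 235 and 82.3 CPM in replicates 3 and 4 (151 ± 72.2 CPM, SD, n = 4). The lower library of each experiment was the one with more epithelial and less T cell RNA. *Nt5e*, which completes the path from AMP to adenosine, had lower levels of 15.8, 6.32, 41.7 and 12.5 CPM in replicates 1 to 4 (19.1 ± 15.6 CPM, SD, n = 4). Replicate 3 was above the other libraries for this gene, whose mean was 11.6 CPM without it, and the 2 experiments overlapped. In every library, *Entpd1* exceeded *Nt5e*, with TPM ratios of 9.69, 12.9, 4.59 and 5.36 in replicates 1 to 4. Without replicates 2 and 4, the means were 211 CPM for *Entpd1* and 28.8 CPM for *Nt5e*. On GRCm38, *Entpd1* lies at chr19:40612366-40741602 and *Nt5e* at chr9:88327609-88372089. Of the 12 ectonucleotidases and phosphatases, *Entpd1* had the highest mean TPM, followed by the intestinal alkaline phosphatase *Alpi* (34.2 TPM) and *Enpp1* (26.9 TPM), which releases pyrophosphate from ATP. *Alpi* is also one of the epithelial markers and was measured at 9.56, 19.6, 5.80 and 87.6 CPM in replicates 1 to 4. *Enpp1* was lowest in replicate 4 (27.3 CPM) and highest in replicate 1 (101 CPM), and both libraries of the second experiment were above those of the first.

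*Adora2a*, the Gs-coupled A2A receptor at chr10:75316877-75334792, had the largest ratio of the highest to the lowest library of the 9 detected genes (13.5). Its level was 25.2 CPM in replicate 1, 11.2 in replicate 2, 151 in replicate 3 and 25.8 in replicate 4 (53.3 ± 65.4 CPM, SD, n = 4). A single library, replicate 3, decided this mean, which was 20.8 CPM without it. *Adora2b*, the A2B receptor of lower adenosine affinity at chr11:62248984-62266452, had 0, 1, 0 and 0 counts in replicates 1 to 4, at or under 3 counts in each, which at these depths allows up to 0.753 CPM in the shallowest library. *Adora1* had 0, 0, 0 and 3 counts, and *Adora3* had 0 counts in all libraries. Of the 4 adenosine receptors, *Adora2a* alone was thus above 3 counts in any library. Without replicates 2 and 4, *Adora2a* had a mean of 88.1 CPM.

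*Ada*, which deaminates adenosine to inosine, was measured at 14.4, 15.5, 20.1 and 41.7 CPM in replicates 1 to 4 (22.9 ± 12.7 CPM, SD, n = 4). *Dpp4*, a dipeptidyl peptidase that anchors ADA to the surface of human T cells, was at 47.0, 44.2, 36.6 and 89.3 CPM (54.3 ± 23.8 CPM, SD, n = 4). Replicate 4 was the highest library for both genes, whereas the other 3 libraries lay close together. Without replicates 2 and 4, the means were 17.2 CPM for *Ada* and 41.8 CPM for *Dpp4*. Both lie on the minus strand of chromosome 2, *Ada* at chr2:163726571-163750239 and *Dpp4* at chr2:62330073-62412231. Of all 101-base words in the GENCODE transcripts of *Ada*, 13.9% also occur in transcripts of *Pkig*. The exons of *Ada* that were counted come from a RefSeq annotation and overlapped no exon of another gene. Whether they hold the shared words was not tested. The share of such words was 0 for *P2rx4*, *Entpd1*, *Nt5e*, *Adora2a*, *Adora2b* and *Cd38*. It was 1.46% for *Dpp4*. Around these genes, the list of 12 genes of adenosine uptake and turnover was led by *Slc28a2* (70.5 TPM), a concentrative nucleoside transporter, *Ahcy* (62.6 TPM), which splits S-adenosylhomocysteine, and *Pnp* (47.5 TPM), which acts after ADA on inosine. All 12 genes had more than 3 counts in at least 1 library.

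*Cd38*, the main NAD hydrolase of lymphocytes, varied least between libraries of the 9 detected genes. It was measured at 105 CPM in replicate 1, 106 in replicate 2, 146 in replicate 3 and 153 in replicate 4 (127 ± 25.4 CPM, SD, n = 4). The 2 libraries of each experiment lay close together, and the first experiment was above the second. The highest library was 1.45 times the lowest, a ratio that was smaller for 3.32% of the 9034 tested genes that exceeded 3 counts in every library (median of these genes, 3.58). Without replicates 2 and 4, the mean was 125 CPM. *Cd38* lies at chr5:43868809-43912374, next to its paralog *Bst1*, which ends 25340 bases before it and had 0, 0, 0 and 25 counts.
*Art2b* (chr7:101575729-101581161, minus strand) had the highest mean TPM and, after *Adora2a*, the largest ratio of the highest to the lowest library (7.11). Its level was 376 CPM in replicate 1, 53.0 in replicate 2, 229 in replicate 3 and 140 in replicate 4 (200 ± 138 CPM, SD, n = 4). The 2 libraries of the second experiment enclosed both of the first. *Art2a*, the neighboring copy of the gene whose reading frame is interrupted in C57BL/6 mice, was measured at 290, 38.0, 154 and 137 CPM in replicates 1 to 4. *Art2b* counts were 1.30, 1.39, 1.49 and 1.02 times those of *Art2a*, so that both copies followed the same order of libraries. Of 2911 distinct 101-base words in *Art2b* transcripts, 28 (0.962%) also occur in *Art2a*, and read pairs from such stretches could be assigned to either gene. Counts of both copies together gave 666, 91.0, 384 and 277 CPM. Without replicates 2 and 4, the mean of *Art2b* was 303 CPM. By TPM, *Art2a* (339), *Art2b* and *Cd38* led the extracellular NAD enzymes, and *Art1*, *Art4* and *Art5* had 0 counts in all libraries.

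Between the experiments, 0 of the 9 genes tested passed an adjusted p of 0.05 by the quasi-likelihood test of edgeR (Benjamini-Hochberg adjusted), and the share over all 11689 genes was 0% (0 genes adjusted, 248 at an unadjusted p under 0.05, 0 of them among the 9). DESeq2 called 41 genes, with 0 of the 9 among them. *Adora2a* had the largest difference, with a log2 fold change of -2.28 (SE 1.05) in the second against the first experiment and an unadjusted p of 0.0698 in the edgeR test (adjusted p = 1.0). For *Nt5e*, *Ada* and *Cd38* the log2 fold changes were -1.30 (SE 1.21), -1.04 (SE 1.01) and -0.50 (SE 0.53). The other 5 lay between -0.47 for *Dpp4* and 0.22 for *Art2b*, with SEs from 0.71 to 0.92. These 5 values rest on single libraries, since each changed sign when 1 replicate was left out. The value of *Art2b* was -1.77 without replicate 1 and 1.02 without replicate 2, and that of *P2rx7* was -1.45 and 0.15. *Entpd1* went to 0.79 without replicate 3, *Dpp4* to 0.33 without replicate 4 and *P2rx4* to -0.75 without replicate 2. In all 9 genes the unadjusted p of the edgeR test was 0.0698 or higher and the adjusted p 1.0.
The 2 libraries of the first experiment were both above those of the second for *Cd38*, *Ada* and *Adora2a*, 3 of 9 genes, while 14.4% of all genes tested showed this. For *Adora2a*, the gap was between 25.8 CPM in replicate 4 and 25.2 CPM in replicate 1. The other 6 genes overlapped, and for 0 of the 9 were both libraries of the second experiment above those of the first (14.7% of all genes). The biological coefficient of variation of the 4 libraries was 0.976. In counts simulated with this spread, the edgeR test found 0 of 177 genes changed by 4 on the log2 scale. The lack of calls therefore does not show that levels were equal.

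Within each experiment, the library with more epithelial RNA was also compared with the one with less, a pairing set with the marker shares known. *P2rx7*, *Entpd1*, *Nt5e*, *Adora2a* and *Art2b*, 5 of 9 genes, were lower by over 0.5 on the log2 scale in both replicate 4 against 3 and replicate 2 against 1. This held for 17.5% of all genes tested. For these 5 genes, in the order named, the log2 differences in the first experiment were -0.70, -1.51, -1.71, -2.53 and -0.71, and in the second -1.64, -0.90, -1.28, -1.15 and -2.82. Of the T cell markers, 7 of 7 were lower in both comparisons (median log2 difference -1.47 and -1.03), while epithelial markers were higher (median 5.02 and 1.72, with 16 of 21 higher in both). Since the pairs were set with the shares of these markers known, the marker directions are a reference and not a separate result. The median over all genes tested was 0.08 and 0.13. Conversely, 0 of the 9 genes were higher by over 0.5 in both comparisons (25.7% of all genes). *Cd38*, *Ada*, *P2rx4* and *Dpp4* did not share this pattern, with differences of 0.07, 1.04, 0.20 and 1.28 in the first experiment and 0.00, 0.10, 1.34 and -0.09 in the second. Relative to the median T cell marker, the differences of *Entpd1* were -0.04 and 0.13, those of *Nt5e* -0.24 and -0.25, and those of *Adora2a* -1.06 and -0.12 in the first and second experiment. *P2rx7* (0.78 and -0.60) and *Art2b* (0.76 and -1.79) differed in opposite directions in the experiments on this scale. *Cd38*, *Ada*, *Dpp4* and *P2rx4* were higher in both, by 0.95 or more. These differences have 1 pair of libraries per experiment and no test, and the part of epithelial RNA in them was not tested.

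**Figure D3:**
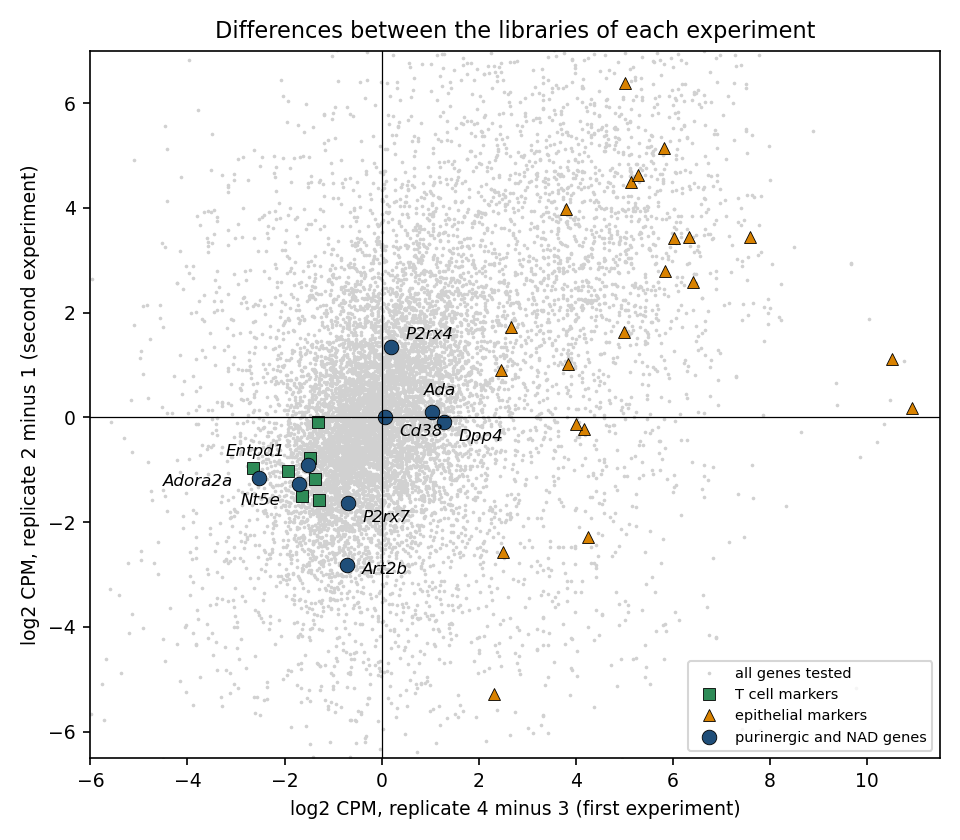
The plot sets the log2 CPM difference of replicate 4 minus 3 (x axis, first experiment) against that of replicate 2 minus 1 (y axis, second experiment) for all genes tested (grey), the T cell markers (green squares), the epithelial markers (orange triangles) and the 9 purinergic and NAD genes tested (blue circles). *Entpd1*, *Nt5e*, *Adora2a*, *P2rx7* and *Art2b* lie in the lower left with the T cell markers, and *P2rx4*, *Ada*, *Dpp4* and *Cd38* lie at or right of 0 on the x axis.

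Profiles over the libraries were compared by the root mean square (RMS) difference of log2 CPM, centred on the mean of each gene over the 4 libraries, as a description. *Ada* and *Dpp4* were the closest pair of the 9 genes (RMS 0.33). The gene of the group nearest to *Cd38* was *Ada* (0.41), and *P2rx7* and *Art2b* had each other as the nearest (0.44). *Nt5e* and *Adora2a* were nearest to each other (0.46). Against the median profile of the T cell markers, the RMS difference was 0.28 for *Nt5e*, 0.33 for *Entpd1* and 0.35 for *P2rx7*. It was 0.65 for *Art2b*, 0.71 for *Adora2a* and 0.75 for *Cd38*, and 1.07, 1.12 and 1.16 for *Ada*, *Dpp4* and *P2rx4*. All 9 genes were further from the epithelial markers, at 1.5 to 3.05. The profiles were not scaled to equal size, and epithelial markers differed more within experiments (median log2 5.02 and 1.72) than T cell markers (-1.47 and -1.03). A gene with small differences can thus lie further from epithelial markers even when it goes in their direction, as *P2rx4* did (0.20 and 1.34). These distances therefore do not tell which markers a gene follows.
Over all genes tested, the profiles nearest to *Art2b* were those of *Gmip* (RMS 0.05) and *Cep295* (0.07), to *Cd38* those of *Ptch1* (0.02) and *Scap* (0.05), and to *P2rx7* those of *AW011738* (0.05) and *Nmi* (0.06). With 4 libraries, such likeness is common: 76 genes lay within 0.25 of *Art2b*, 227 of *P2rx7* and 320 of *Cd38*.

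Genes that act around these receptors were taken from 10 lists with 83 further genes in the table, of which 37 had more than 3 counts in all libraries, 15 had at most 3 in each and 53 were tested. Between the experiments, 0 of the 53 passed an adjusted p of 0.05 in the edgeR test and 1, *Gsdmd*, had an unadjusted p under 0.05. *Gsdmd*, the pore-forming gasdermin D, was measured at 19.3, 18.2, 58.9 and 76.5 CPM in replicates 1 to 4 (unadjusted p = 0.048 and adjusted p = 1.0 in edgeR's test); it was named after its values were seen. The genes downstream of P2X7 were led by *Myh9* (221 TPM), a myosin chain that binds P2X7, *Cd27* (149 TPM), which is shed from T cells after P2X7 opens, and the inflammasome adaptor *Pycard* (93.2 TPM). *Cd27* was at 146, 30.4, 144 and 22.8 CPM in replicates 1 to 4, lower in replicates 2 and 4, whereas *Pycard*, at 13.7, 156, 37.1 and 73.8 CPM, was higher in them.
The 9 genes of the cAMP path after A2A were abundant, with a median percentile of 90.4, and all 9 were lower in replicate 4 than 3 and in replicate 2 than 1, as were the 7 T cell markers and 29.9% of all genes tested. They were led by *Crem* (597 TPM), a cAMP-responsive transcription factor, *Prkar1a* (334 TPM), a regulatory subunit of protein kinase A, and *Gnas* (246 TPM), the Gs alpha subunit. *Crem* was measured at 1550, 452, 1525 and 403 CPM in replicates 1 to 4. Of the genes of ATP release, *Lrrc8a* (46.0 TPM), *Calhm2* (31.4 TPM) and the pannexin channel *Panx1* (31.2 TPM) had the highest levels. Of the 11 genes of NAD synthesis, the NAD kinases *Nadk* (62.3 TPM) and *Nadk2* (26.3 TPM) and the nicotinamide riboside kinase *Nmrk1* (25.8 TPM) led, and *Nmrk1* had 267, 128, 35 and 0 counts in replicates 1 to 4.
The median TPM percentile was 62.3 for the 10 genes of the group, 67.9 for the P2X7 downstream list and 92.0 for the T cell markers. It was 35.4 for adenosine uptake and turnover, 32.9 for ectonucleotidases, 30.0 for NAD synthesis, 18.2 for ATP release, 8.97 for P2Y receptors, 6.41 for extracellular NAD enzymes, 3.82 for P2X receptors and 2.80 for adenosine receptors. In the receptor and NAD enzyme lists, a few genes with high levels thus stood beside others near 0.

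**Figure D4:**
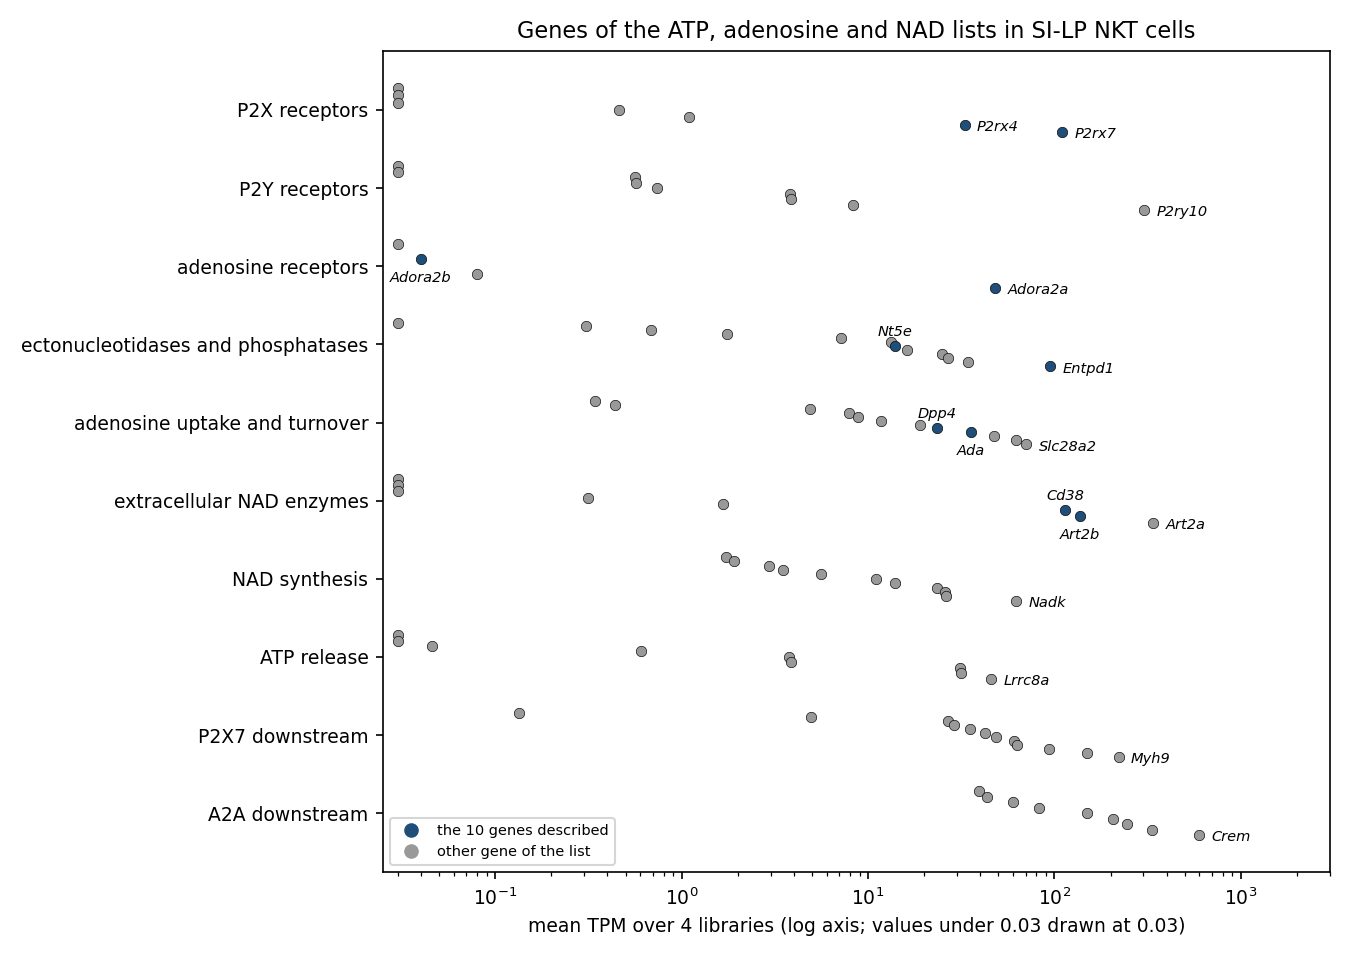
The plot shows the mean TPM over the 4 libraries (log axis, values under 0.03 drawn at 0.03) of each gene in the 10 lists, with the purinergic and NAD genes in blue and the others in grey. In the P2X and adenosine receptor lists, *P2rx7* (110 TPM), *P2rx4* (32.9 TPM) and *Adora2a* (48.2 TPM) lie apart from the others, which are at or below 1.09 TPM.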

How the data were processed

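RNA-seq libraries of sorted SI-LP NKT cells were analysed, 4 of one condition from 2 experiments. The authors deposited raw counts per gene from featureCounts 1.6.4, which counted primary alignments of read pairs (of multi-mapping reads too) on exons of a RefSeq annotation without a strand option. Libraries were prepared with a kit for low RNA amounts. The methods name HISAT2, GRCm39 and a NovaSeq, the labels GRCm38.p6, Bowtie2, RSEM and a HiSeq, and the gene positions in the table are those of GRCm38, which all coordinates follow. Of 6 library columns, 4 match a sample label and 2 were not used. Lymphoid NKT cells are not analysed here.

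CPM values were scaled with TMM factors (edgeR) and TPM values with the gene lengths deposited by the authors, and log2 CPM was taken with a prior count of 2. The 11689 genes that reached 10 counts in 2 or more libraries entered the quasi-likelihood test of edgeR, second against first experiment, with p-values adjusted over all of them (Benjamini-Hochberg). Since there is one condition, this measures batch and replicate error. A level of 3 counts is the floor, which covers counting error only, since PCR reads without molecular identifiers are not independent molecules. All 10 genes of the group are named, with the 3 genes of highest mean TPM in each of 10 pathway lists, the 2 profiles nearest to the 3 genes of highest TPM, and markers where they touch a result. The genes and lists were chosen with earlier results of these data known. *Trdc*, *Tcrg-C1* and *Art2a-ps* matched no symbol of the table. Values of some single genes of the lists are not reported here.

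The edgeR test was tested on simulated counts: of 192 genes changed by 2 on the log2 scale between the experiments it found 186 when the dispersion was 0.05 (11554 genes in the fit, 9 false calls) and 0 when it was that of these libraries (11244 genes). Of 177 genes changed by 4 on the log2 scale it also found 0 at the dispersion of these libraries. Alternatives were DESeq2, median-of-ratios factors, total counts, other filters, another prior count, a table without *Rn45s*, CPM in place of TPM, values relative to T cell markers and leaving out each replicate. Lengths of the longest coding transcript and leaving out replicates 2 and 4 were added after seeing the data. Python 3.11.15 was used with pandas 2.3.3, numpy 2.4.6, matplotlib 3.10.9 and scipy 1.17.1, and R 4.3.3 with DESeq2 1.42.0, edgeR 4.0.16 and limma 3.58.1.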

Additional observations from a re-analysis of the deposited data

Results flagged for a closer look

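In 40 sets of 4 library values examined for a sample far from the others, 2 were past Dixon's 95% critical value for 4 samples, the number that chance would give on average. For *Adora2a*, replicate 3 at 150.9 CPM lay above the other libraries, which were between 11.2 and 25.8 CPM, and the gap was 0.895 of the whole range. For the alkaline phosphatase *Alpi*, replicate 4 at 87.6 CPM lay above the others, between 5.80 and 19.6 CPM, the gap being 0.831 of the range. Epithelial markers, of which *Alpi* is one, took 3.07% of the counts of replicate 4, most of it from *Lyz1* alone. T cell markers took 0.284% of the counts of replicate 3. Both were the highest share of their list over the libraries. For T cell markers the share in replicate 1 was close, at 0.254%, and *Adora2a* was at 25.2 CPM there. The part of these markers in both flagged values was not tested.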

How the results depend on the processing

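No paired analysis was possible because the 4 libraries share one condition and no replicate number stands in 2 groups. The number of genes called between the experiments was 0 with edgeR, also with median-of-ratios factors, total counts, a filter of 10 counts in every library or without *Rn45s*. It was 41 with DESeq2, 60 without a filter on low counts, and 0 to 7 when a replicate was left out (7 without replicate 3 and 6 without replicate 4, where a lone library is assumed to vary like the others). In each of these settings 0 of the 10 genes were called, with a smallest adjusted p of 0.812, for *Adora2a* without replicate 4, and *Adora2a* had an unadjusted p under 0.05 in 4 of them (DESeq2, no filter, 10 counts in every library, without replicate 4). Without replicate 3, the log2 fold change of *Adora2a* between the experiments was -0.52 (edgeR) in place of -2.28, and that of *Nt5e* -0.20 in place of -1.30. The median TPM percentile of 62.3 became 49.3 within the genes that reached 10 counts in every library, and ranged from 60.6 to 66.7 when a replicate was left out. The number of detected genes of the group was 9 in each alternative run. The log2 differences within experiments changed sign relative to T cell markers for *Entpd1* (0.047, from -0.04 and 0.13) and *P2rx7* (0.086, from 0.78 and -0.60, which differ in sign). With lengths of the longest coding transcript, *Ada* went from 35.7 to 12.2 TPM and *P2rx7* (142 TPM) passed *Cd38* (102 TPM). Depth limits the statements on *Adora2b* and the other genes at or under 3 counts.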

Other observations

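*Adam17* and *Adam10*, membrane proteases that shed surface proteins after P2X7 opens, varied less between libraries than *P2rx7* itself. *Adam17* was measured at 71.4, 68.0, 67.2 and 74.5 CPM in replicates 1 to 4, with the highest library 1.11 times the lowest, and *Adam10* at 86.7, 55.3, 107 and 81.0 CPM (1.94 times). Of the other P2X7 downstream genes, *Casp1* was at 18.3, 71.7, 5.13 and 32.4 CPM and *Nlrp3* had 2, 96, 10 and 74 counts, both higher in replicates 2 and 4, the libraries with more epithelial RNA. *Il1b* had no such order, at 35.9, 2.97, 8.93 and 20.8 CPM. These genes were named after their values were seen, and no test was run on them beyond the edgeR test between the experiments, in which each had an adjusted p of 1.0.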
